A study of Mus musculus with 4 samples.

Results

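The T-box genes encode transcription factors that bind DNA through a shared domain, the T-box. Of the 25239 gene symbols in the deposited count table, 9 were taken here by name: Tbx1, Tbx2, Tbx3, Tbx4, Tbx5, Tbx6, Tbx15, Tbx18 and Tbx20. The table holds 8 further T-box genes (Tbx10, Tbx19, Tbx21, Tbx22, Tbr1, Eomes, T and Mga), which serve for comparison within the family.

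The libraries came from hindlimb buds of FVB mouse embryos at embryonic day 11.5, labelled wild-type in genotype apart from the reporter. All 4 libraries, central ones included, carried the H11 hsp68-hZRS(404G>A)-mCherry reporter: a human ZRS, the limb enhancer of Shh, with the 404G>A base change, joined to the hsp68 promoter and mCherry at the H11 locus. Anterior cells positive for mCherry (2 libraries) were set against central cells negative for mCherry (2 libraries). Position in the bud and reporter activity differ together between these groups and cannot be told apart. The sources used here do not say whether a library came from 1 embryo or a pool, so p-values measure only the spread between these libraries, which may be technical. Totals ran from 30080925 to 33257383 counts.

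In limb development, Tbx5 marks the forelimb and Tbx4 the hindlimb, and both are known as regulators of Fgf10 in bud outgrowth. Tbx2 and Tbx3 are repressors known for their expression at the anterior and posterior margins of the bud and for their dependence on BMP and hedgehog signals. Tbx15 and Tbx18 are closely related repressors that recruit Groucho corepressors, and Tbx15 is needed for a normal scapula and other skeletal elements. Tbx1, Tbx6 and Tbx20 are best known elsewhere, in the pharyngeal region, the presomitic mesoderm and the heart.

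In GENCODE M21, an annotation of the same mm10 build that the submitters' processing notes name, Tbx2 is linked to Tbx4 and Tbx3 to Tbx5. Tbx2 (chromosome 11, 85832551 to 85841948) and Tbx4 (85886422 to 85916097) are 44.5 kb apart on the plus strand. Tbx3 (chromosome 5, 119670669 to 119684724) and Tbx5 (119832668 to 119885219) are 148 kb apart, also on the plus strand. Tbx15 lies on chromosome 3 (99240381 to 99354259, plus strand) and Tbx18 on chromosome 9 (87702800 to 87731260, minus strand). The remaining members are Tbx1 (chromosome 16, 18580979 to 18590671, minus strand), Tbx6 (chromosome 7, 126781483 to 126785560, plus strand) and Tbx20 (chromosome 9, 24718138 to 24774303, minus strand).

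RefSeq promoter sequence of build GRCm38.p6 was matched for 5 of the 9 members (Tbx1, Tbx4, Tbx6, Tbx18 and Tbx20), and 4 are shown because they set members that were not called between the populations (Tbx4, Tbx6) beside members that fell in anterior cells (Tbx1, Tbx18). Each is the 250 bases before a listed start site, on the gene's own strand, and capitals mark TATAAA on either strand. The Tbx4 window is chr11:85896515-85896764, before the most internal of 3 annotated starts. The others are chr7:126781233-126781482 for Tbx6, chr9:87731261-87731510 for Tbx18 and chr16:18590672-18590921 for Tbx1.
Tbx4: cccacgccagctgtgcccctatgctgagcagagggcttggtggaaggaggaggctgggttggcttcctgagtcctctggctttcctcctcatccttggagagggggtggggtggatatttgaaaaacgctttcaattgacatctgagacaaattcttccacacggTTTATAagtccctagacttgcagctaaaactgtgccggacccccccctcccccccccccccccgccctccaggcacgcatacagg
Tbx6: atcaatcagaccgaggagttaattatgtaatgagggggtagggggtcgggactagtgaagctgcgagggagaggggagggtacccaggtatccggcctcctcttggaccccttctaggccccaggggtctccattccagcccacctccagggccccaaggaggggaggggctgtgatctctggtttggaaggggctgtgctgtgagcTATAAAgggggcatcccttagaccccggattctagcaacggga
Tbx18: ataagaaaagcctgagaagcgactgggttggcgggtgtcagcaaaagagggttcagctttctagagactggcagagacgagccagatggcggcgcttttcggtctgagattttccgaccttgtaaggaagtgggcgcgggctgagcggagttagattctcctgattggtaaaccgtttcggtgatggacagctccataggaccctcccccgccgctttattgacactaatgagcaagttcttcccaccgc
Tbx1: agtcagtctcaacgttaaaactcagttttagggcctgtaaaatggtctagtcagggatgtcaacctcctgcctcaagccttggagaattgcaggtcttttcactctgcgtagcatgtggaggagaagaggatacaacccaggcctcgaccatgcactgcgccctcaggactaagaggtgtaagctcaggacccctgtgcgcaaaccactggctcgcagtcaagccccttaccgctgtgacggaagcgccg

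The motif TATAAA, searched on both strands, was found in the Tbx4 and Tbx6 windows, beginning 85 and 43 bases before the start (on the opposite strand for Tbx4, where it reads TTTATA). It was not found in the windows of Tbx1, Tbx18 or Tbx20, and 12.4% of all 32851 promoter windows hold it. CpG dinucleotides were at 0.285 of the number expected from base composition for Tbx4 and 0.281 for Tbx6, against 0.836 for Tbx18, 0.749 for Tbx20 and 0.541 for the printed Tbx1 window (0.603 for a second Tbx1 start). Among all promoter windows, Tbx4 and Tbx6 lay at percentiles 41.1 and 40.6 of this measure. Tbx18, Tbx20 and the printed Tbx1 window lay at 83.7, 77 and 62.1. The letters GGTGTG, the core of the sequence that T-box proteins bind, were searched on both strands, are held by 16.3% of all windows and do not occur in those of these 5 members. The motif GGTGTG does not overlap TATAAA. Any relation of these promoter features to the calls was not tested.

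Of the 9 members, 4 were lower in anterior than in central cells (Tbx1, Tbx5, Tbx15 and Tbx18), 0 were higher, 4 were not called (Tbx2, Tbx3, Tbx4 and Tbx6) and Tbx20 was too low to test. Calls are at 0.05 in the quasi-likelihood test of edgeR, adjusted by Benjamini-Hochberg over 14610 genes, where 12.3% of genes were called lower, 10.7% higher and 22.9% either way. At 0.01 the same 4 members were called, where 6.63% of genes were called lower, 4.93% higher and 11.6% either way. Without anterior replicate 2 the count over all genes dropped to 1941 from 3351, while the members called stayed at 4. Tbx1 and Tbx5 passed the low-count filter only through their central libraries, so their being tested at all required a difference. The median log2 fold change of the 6 other tested members was -0.41, beside -0.009 over all tested genes. Both anterior libraries lay below both central ones for 6 of the 8 tested members, Tbx1 and Tbx5 among them, as they did for 32.6% of all tested genes. No tested member had both above, as 30.8% of tested genes had, and 63.5% had no overlap either way.

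**Figure D1:**
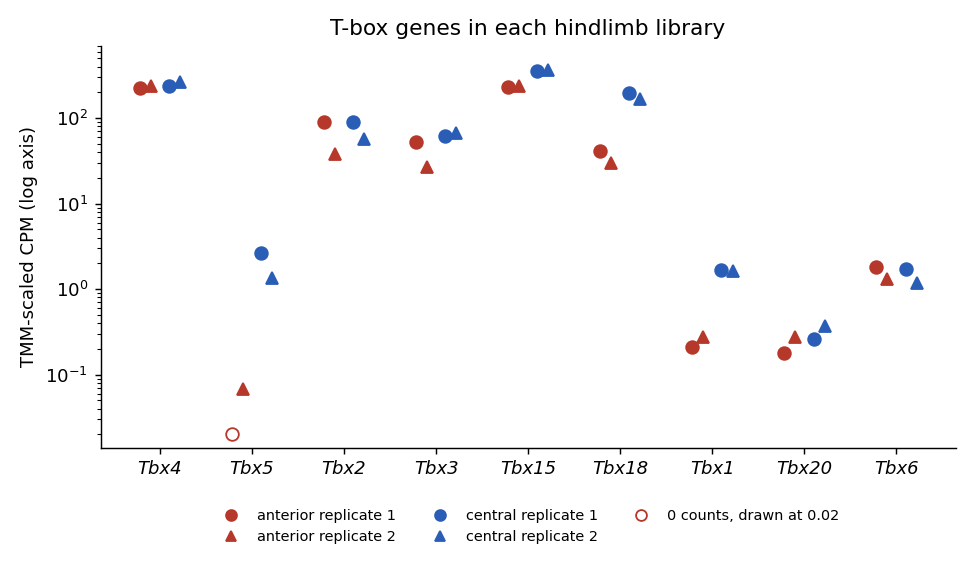
TMM-scaled CPM (log axis) of the 9 members in each library, red for anterior and blue for central, circles for replicate 1 and triangles for replicate 2. Tbx4 and Tbx15 sit above 200 CPM in all 4 libraries, while Tbx5 has 0 counts in anterior replicate 1 (open symbol, drawn at 0.02 because 0 has no place on a log axis).

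Tbx4, the hindlimb member, was abundant in both populations. Anterior replicates 1 and 2 measured 225 and 238 CPM (counts per 1 M counts of the TMM-scaled library), and central replicates 1 and 2 measured 240 and 267. The anterior values lay just below the central values, with no overlap and a gap smaller than the spread between the central replicates. The log2 fold change, anterior minus central throughout, was -0.14 ± 0.07 (SE) with an edgeR adjusted p of 0.223. Tbx4 was called lower only without central replicate 1, at -0.21 (edgeR adjusted p 0.0281).

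Tbx5, the forelimb member, was nearly absent from anterior cells and low in central cells. Anterior replicates gave 0 and 2 counts of it, and central replicates 82 and 44. Nearly all of the signal was thus central, and the central replicates themselves differed 1.96-fold in CPM. The summed counts were 62.5 times higher in central cells, with a 95% exact interval of 17.0 to 522 that covers counting error only. On halved counts, which allow for both mates of a read pair having been counted, the interval was 10.8 to 2510. The edgeR adjusted p was 0.0024, and the fitted log2 fold change of -5.80 ± 0.91 (SE) depends on the prior count. That fitted value was -4.80 without anterior replicate 1 and -9.02 without anterior replicate 2.

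Tbx4 outweighed Tbx5 in every library. Tbx4 made up 100% and 99.971% of the counts of this pair in the anterior libraries (95% Clopper-Pearson intervals 99.951% to 100% and 99.896% to 99.997%). In the central libraries it made up 98.903% (98.640% to 99.127%) and 99.494% (99.322% to 99.632%). The Tbx5 remainder was therefore 1.10% and 0.506% of the central sums. Both were above the upper bounds of anterior replicates 1 and 2, at 0.0493% and 0.104%. These intervals use the counts as deposited, in which both mates may have been counted. Per kilobase of exon, Tbx5 stood at 0.00807 and 0.0037 of the level of Tbx4 in the central libraries. Over libraries the shares did not overlap, at 99.986% on average in anterior and 99.199% in central cells, but an exact two-sided permutation test of 2 against 2 libraries gave p = 0.333, the smallest it can give. Whether the fold changes of Tbx4 and Tbx5 differ was not tested by itself.

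**Figure D2:**
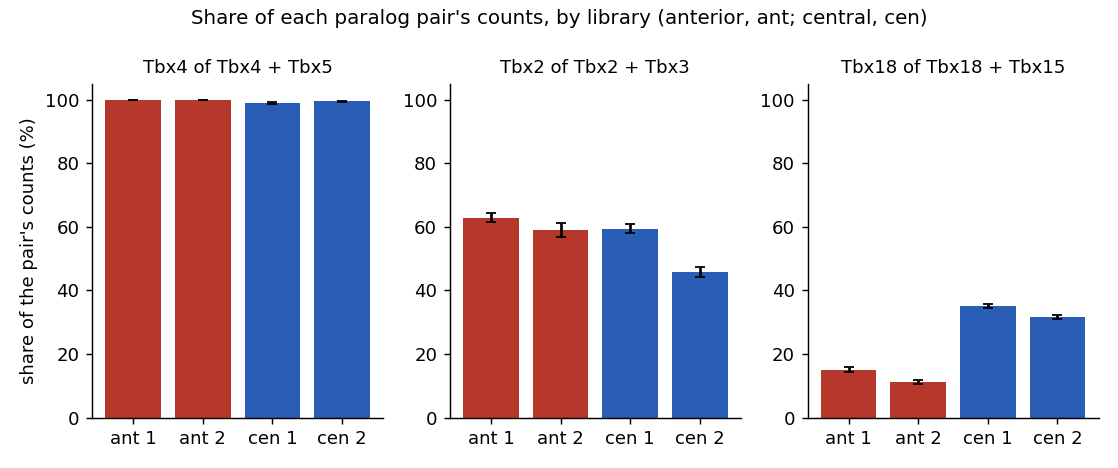
Percentage of each pair's counts taken by its first-named gene, by library (red anterior, blue central), with 95% Clopper-Pearson intervals that cover counting error only. Tbx4 takes at least 98.903% of its pair in every library, and Tbx18 takes 15.1% and 11.2% in anterior libraries against 35.1% and 31.6% in central ones.

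Of the heart markers, taken because Tbx5 and Tbx20 are also expressed there, the transcription factor genes Nkx2-5 and Gata4 were at or near 0. Nkx2-5 had 0 counts in all 4 libraries, and Gata4 had 4, 0, 0 and 4. The 8 heart markers together summed to 1.80 and 4.30 CPM in anterior and to 30 and 6.55 in central cells, where Actc1, which skeletal muscle also expresses, gave 25.3 and 5.04 CPM. Of the 3 heart markers tested, Actc1 and Tnnt2 fell and Hand1 (30 and 113 counts in anterior, 62 and 24 in central cells) was not called. The call for Actc1 (edgeR adjusted p 0.00285) was lost with limma-voom (0.136) and the DESeq2 Wald test (0.0504), and that for Tnnt2 without central replicate 1 (edgeR adjusted p 0.0583). In bulk RNA, fewer cells of a type and less RNA per cell cannot be told apart, here or for any member below.

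Tbx2 differed more between replicates than between populations. Anterior replicates measured 89.5 and 38.3 CPM, central replicates 90.1 and 56.5, and the groups overlapped. Its log2 fold change was -0.19 ± 0.34 (SE) with an edgeR adjusted p of 0.733. The call rested on which library was kept: without anterior replicate 1 Tbx2 was called lower, at -0.93 (edgeR adjusted p 0.0107), and without anterior replicate 2 or central replicate 1 its sign turned, to 0.29 and 0.18.

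Tbx3 had the same split between the anterior libraries. It measured 53.0 and 26.6 CPM there, against 61.7 and 66.8 in central cells. Both anterior values were below both central ones, and anterior replicate 2 was far lower than the other 3 libraries. The log2 fold change was -0.69 ± 0.25 (SE), not called by edgeR (adjusted p 0.081). It was called without anterior replicate 1, at -1.27 (edgeR adjusted p 2.79e-05), and without central replicate 1, at -0.74 (0.0385). Tbx3 was also called with limma-voom (adjusted p 0.0491) and without the filter on low counts (edgeR adjusted p 0.0049), in a range of 2.79e-05 to 0.351 over all alternatives.

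Between the anterior replicates, Tbx2 was 2.34-fold and Tbx3 2.0-fold higher in replicate 1, where 5.11% of tested genes differed by more than 2-fold in either direction. Shh measured 27.4 and 11.7 CPM in these libraries and Bmp2, which encodes a BMP ligand, 33.8 and 12.2, ratios that moved the same way as those of Tbx2 and Tbx3. The other BMP and hedgehog genes read here differed less between these libraries. Their log2 ratios of replicate 1 over replicate 2 were 0.17 for Bmp4, 0.04 for Bmp7, -0.09 for Msx1, 0.12 for Msx2 and 0.02 for Id1. Those of Id2, Id3, Ptch1, Gli1 and Gli3 were -0.09, -0.08, 0.15, 0.12 and -0.27. The posterior regulator Hand2 measured 239 and 169 CPM. Proximal limb genes were also higher in replicate 1 (97.4 against 62.2 CPM summed over 5 genes), and blood genes were lower (3300 against 8390 CPM summed over 10 genes). Most of the proximal sum was Shox2 (77.9 and 57.8 CPM, 1.35-fold). Meis1, Meis2 and Irx3 were 3.38-fold, 5.39-fold and 2.97-fold higher in replicate 1, more than Tbx2 or Tbx3. Irx5 was 12.3-fold higher, on 28 and 2 counts. Shh, Bmp2 and Hand2 were picked here after their values were seen, and the part of these differences in the Tbx2 and Tbx3 values was not tested.

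**Figure D3:**
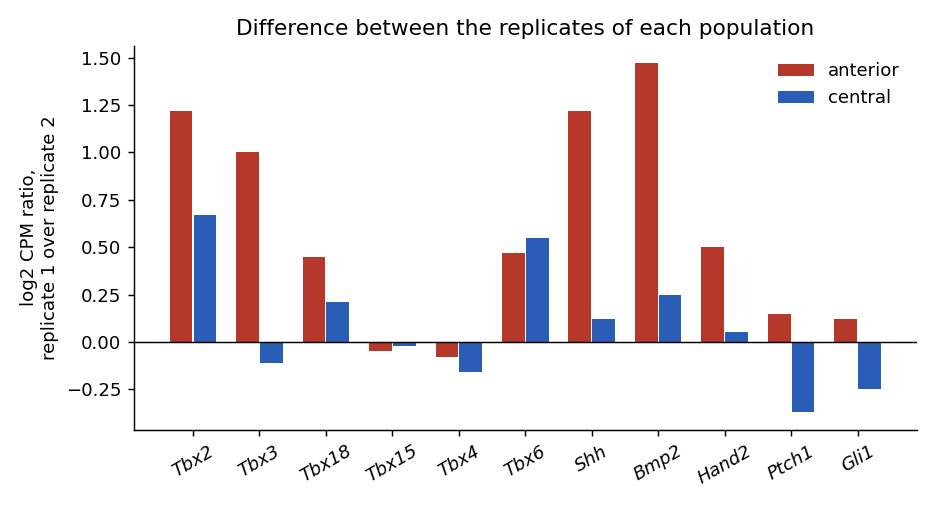
Log2 ratio of CPM in replicate 1 over replicate 2, within anterior (red) and within central cells (blue). Shown are 6 members, the hedgehog and BMP genes Shh, Bmp2, Ptch1 and Gli1, and the posterior regulator Hand2. In anterior cells Tbx2 stands at 1.22, Tbx3 at 1.0, Shh at 1.22 and Bmp2 at 1.47, beside 0.5 for Hand2, 0.15 for Ptch1 and 0.12 for Gli1. Tbx4 and Tbx15 stand within 0.16 of 0 in both populations.

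Tbx2 took a similar share of the Tbx2 and Tbx3 counts in 3 libraries. The share was 62.8% and 59.1% in the anterior libraries, 59.4% in central replicate 1 and 45.9% in central replicate 2 (exact two-sided permutation p = 0.667). The values of the anterior group overlapped those of the central group.

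Tbx18 had the smallest adjusted p among the members. Anterior replicates measured 41.1 and 30.1 CPM, and central replicates 195 and 169. Every central value was more than 4 times every anterior value. The fitted difference was -2.35 ± 0.14 on the log2 scale (SE), 5.10-fold lower in anterior cells, with an edgeR adjusted p of 1e-05. Tbx15, its close paralog, moved the same way by less. Its anterior values were 231 and 239 CPM against central values of 361 and 365, with replicates that nearly coincided. The log2 fold change came to -0.63 ± 0.06 (SE), and edgeR's adjusted p was 0.000138. Both calls were kept under every alternative run, including each left-out library (Tbx18 from -2.59 to -2.15, Tbx15 from -0.67 to -0.61).

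The balance of this pair also differed between the populations. Tbx18 made up 15.1% (95% Clopper-Pearson interval 14.4% to 15.8%) and 11.2% (10.5% to 11.9%) of the Tbx18 and Tbx15 counts in anterior replicates. It made up 35.1% (34.4% to 35.8%) and 31.6% (30.9% to 32.3%) in the central ones. The groups did not overlap, and the exact two-sided permutation test gave p = 0.333, again the smallest 2 against 2 libraries allow. The Tbx2 and Tbx3 pair and the Tbx18 and Tbx15 pair were added after the values were seen.

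Tbx22, the third gene of the Tbx15 and Tbx18 branch and known for its role in the palate, was low and mostly central. Anterior replicates gave 4 and 8 counts, and central replicates 127 and 97, without overlap. Its log2 fold change was -4.18 ± 0.52 (SE) with an edgeR adjusted p of 0.000687. The summed counts were 18.5 times higher in central cells (95% exact interval 10.4 to 36.4, counting error only), or 18.4 times (8.17 to 51.1) on halved counts. Like Tbx1 and Tbx5, it passed the filter only through the central libraries.

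Tbx1, best known from the pharyngeal arches, was also low and mostly central. Anterior replicates gave 7 and 8 counts and central replicates 51 and 53, so each population's replicates were close together. The log2 fold change was -2.76 ± 0.54 (SE) with an edgeR adjusted p of 0.00687. The ratio of summed counts was 6.88 (95% exact interval 3.99 to 12.7), or 7.23 (3.27 to 18.9) on halved counts.

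Tbx20 was near the lower limit of detection, and Tbx6 was low in all 4 libraries. Tbx20 gave 6 and 8 counts in anterior and 8 and 12 in central cells and did not pass the filter. Without the filter its log2 fold change was -0.47 ± 1.08 (SE, edgeR adjusted p 0.816). Tbx6 measured 1.80 and 1.30 CPM in anterior and 1.72 and 1.17 in central cells, with overlapping groups (log2 fold change 0.10 ± 0.43 SE, edgeR adjusted p 0.896). Among genes that accompany Tbx6 in the presomitic mesoderm, Ripply1 and Ripply2 were at 0 in all 4 libraries and Msgn1 had 0, 0, 2 and 2 counts. Dll1, a Notch ligand gene also expressed there, gave 14 and 6 counts in anterior and 122 and 163 in central cells (log2 fold change -3.81, edgeR adjusted p 0.000487). Lfng, which encodes a modifier of Notch, gave 54 and 61 against 183 and 179 counts (-1.63, edgeR adjusted p 0.00401). With Meox1, a somite homeobox gene, at -4.64 and Tcf15 at -1.81, all 4 tested genes of the paraxial mesoderm list fell (median log2 fold change -2.81).

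Among the other T-box genes, Tbx22 alone was called. Mga, which encodes a large protein with both a T-box and a basic helix-loop-helix domain, measured 181 and 197 CPM in anterior and 153 and 188 in central libraries (edgeR adjusted p 0.328) and was called higher only without central replicate 2 (0.00723). T (brachyury) had 66, 98, 96 and 74 counts in the libraries taken in the order anterior 1, anterior 2, central 1 and central 2 (edgeR adjusted p 0.968). Tbr1 had 36, 18, 8 and 14 counts in that order, higher in both anterior libraries but not called (edgeR adjusted p 0.182). Eomes had 14, 6, 46 and 0 counts, so 1 central library held most of its signal (edgeR adjusted p 0.545). Tbx21 and Tbx19 had at most 6 counts in any library and Tbx10 was at 0 throughout.

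**Figure D4:**
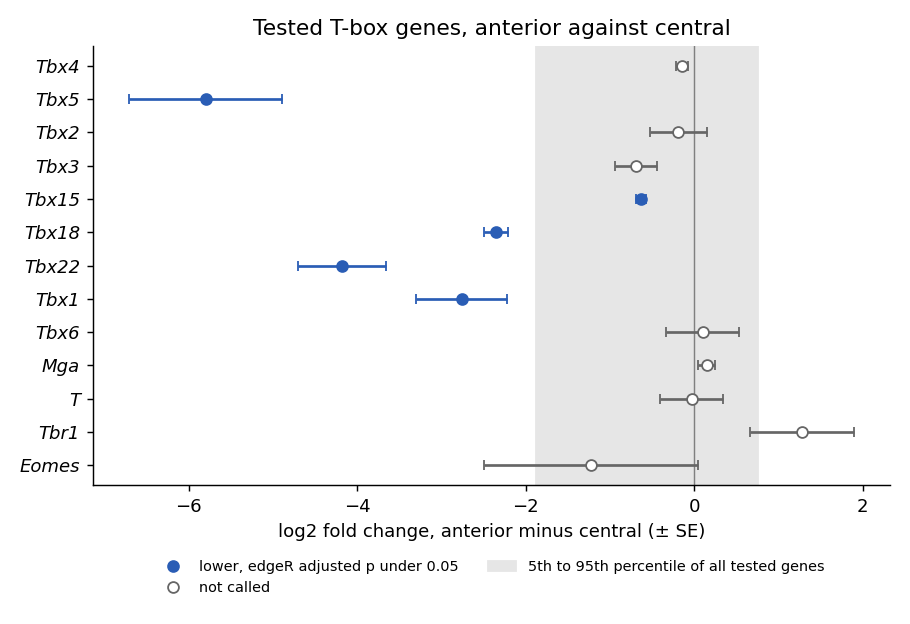
Log2 fold change, anterior minus central, with its standard error for the 13 tested T-box genes, filled blue where called lower by edgeR at an adjusted p under 0.05. The grey band spans -1.88 to 0.76, the 5th to 95th percentile of all tested genes. Tbx5, Tbx22, Tbx1 and Tbx18 lie to its left, and Tbx15 is called inside it.

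Levels between genes were compared as CPM per kilobase of annotated exon. In anterior cells Tbx4 came first at 67.9 ± 2.71 (SD, n = 2), followed by Tbx15 at 62.7 ± 1.39, with no overlap between their library values. That order rests on the annotated exon lengths, 3.40 kb for Tbx4 and 3.75 kb for Tbx15. In CPM their anterior values overlapped, at 225 and 238 for Tbx4 and 231 and 239 for Tbx15. Tbx2 (17.6 ± 9.99) overlapped Mga (12.3 ± 0.74), and Tbx18 (7.54 ± 1.64) overlapped Tbx3 (6.0 ± 2.82). T (1.15 ± 0.416) overlapped Tbx6 (0.858 ± 0.197), and all other T-box genes averaged 0.154 or less. In central cells Tbx15 came first at 96.9 ± 0.787, then Tbx4 at 74.6 ± 5.69 and Tbx18 at 38.6 ± 4.03, each apart from the next. Tbx2 followed at 20.2 ± 6.55, and Mga (11.1 ± 1.64) overlapped Tbx3 (9.70 ± 0.537). At the low end Tbx22 (0.641 ± 0.144) overlapped Tbx6 (0.802 ± 0.214), and Tbx1 (0.468 ± 0.00376) overlapped Tbx5 (0.430 ± 0.197). Tbx4 and Tbx15 together supplied 69.7% and 78.6% of the summed T-box level in anterior and 65.0% and 69.7% in central libraries.

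Of the 4 tested genes of the hindlimb list, 3 fell in anterior cells and Pitx1 was not called. Pitx1, the homeobox gene upstream of Tbx4, measured 442 ± 11.2 CPM in anterior and 456 ± 37.5 in central cells (SD, n = 2; edgeR adjusted p 0.707). Isl1, a LIM-homeobox gene of early hindlimb outgrowth, fell by 3.09 on the log2 scale, with 4.56 and 0.682 CPM in anterior and 22.0 and 23.6 in central cells (edgeR adjusted p 0.00443). Hoxc11 and Hoxc10, posterior Hox genes of the hindlimb, fell by 1.61 and 0.76 (edgeR adjusted p 0.000137 and 0.006). Hoxc12 was too low to test. The median of the list was -1.18. Of the forelimb-level genes, Hoxc5 fell by 0.71 (edgeR adjusted p 0.0346, lost whichever library was left out, at 0.0504 to 0.183) and Hoxc4 was not called (-0.48, edgeR adjusted p 0.151).

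Genes described as targets of Tbx4 and Tbx5 went both ways, with 3 of 5 tested higher, 1 lower and 1 not called (median log2 fold change 0.56). Fgf10, the mesenchymal FGF that sustains outgrowth, measured 67.4 ± 5.06 CPM in anterior and 26.6 ± 3.0 in central cells (SD, n = 2), and its log2 rise was 1.34 ± 0.11 (SE) at an edgeR adjusted p of 5.17e-05. The zinc-finger genes Sall4 and Sall1 rose by 1.15 and 0.56 (edgeR adjusted p 6e-05 and 0.00815). Cdh2, encoding N-cadherin, fell by 0.29 (edgeR adjusted p 0.027), a call lost without either anterior library or central replicate 1 (0.075 to 0.132). Gja5, a connexin gene, was not called (-1.43, edgeR adjusted p 0.0992) and Nppa was too low to test.

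Of the genes described as targets of Tbx2 and Tbx3, 2 of 6 tested rose, 3 fell and 1 was not called (median -0.03). Cdkn1a, which encodes the cell cycle inhibitor p21, fell from 18.8 ± 4.87 CPM in central to 1.61 ± 0.35 in anterior cells (SD, n = 2), with a fitted log2 value of -3.54 ± 0.26 (SE) and an edgeR adjusted p of 3.39e-05. Bmp4 rose by 1.44 and Gja1, a connexin gene, by 0.59 (edgeR adjusted p 1.18e-05 and 0.000213). Cdh1, also an ectoderm marker, passed the filter only through its central libraries and fell by 6.20 (edgeR adjusted p 0.00222). That call was lost with limma-voom (adjusted p 0.0725). Grem1, a secreted BMP antagonist, fell by 0.54 (edgeR adjusted p 0.0404). The Grem1 call was lost without anterior replicate 1 (0.178) and without central replicate 2 (0.148). In the list of BMP and hedgehog genes, 8 of 11 rose, 2 fell and 1 was not called (median 0.81), with Msx1, Msx2, Bmp4 and Id1 at 3.26, 2.80, 1.44 and 1.23. The 2 that fell were Ptch1, the hedgehog receptor gene, and Gli1, a transcription factor gene induced by hedgehog signals (by 0.54 and 0.42, edgeR adjusted p 0.0102 and 0.0135), and both calls were lost without anterior replicate 2 (0.0504 and 0.0843). Among the Groucho corepressor genes, Tle1 and Tle4 rose (0.30 and 0.52), Tle2 and Tle5 fell (by 1.33 and 0.41) and 2 were not called (median -0.03). The calls for Tle1, Tle4 and Tle5 were lost without anterior replicate 1 (edgeR adjusted p 0.0816, 0.0534 and 0.0518), and that for Tle1 also without anterior replicate 2 (0.0841).

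Lists of limb position and tissue genes were read beside Tbx15 and Tbx18, and their relation to the values of these members was not tested. All 5 proximal genes fell (median -4.46), led by the homeobox genes Irx5, Irx3, Meis1 and Meis2 at -5.91, -5.69, -4.46 and -4.27. All 6 distal genes rose (median 2.18), led by Msx1 at 3.26 and the LIM-homeobox genes Lhx2 and Lhx9 at 2.65 and 2.60, with Hoxa13 at 1.76. Of 7 condensation and scapula genes, 4 fell, 1 rose and 2 were not called (median -2.05), with the cartilage genes Col2a1 and Sox9 at -2.73 and -1.27. In muscle connective tissue and tendon the 3 tested genes Osr2, Osr1 and Scx fell, at -5.08, -4.87 and -3.31. The symbol Tcf4, also entered in that list, denotes an E-protein gene and not the connective tissue marker formerly called by that name, so it was left out after its value was seen.

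**Figure D5:**
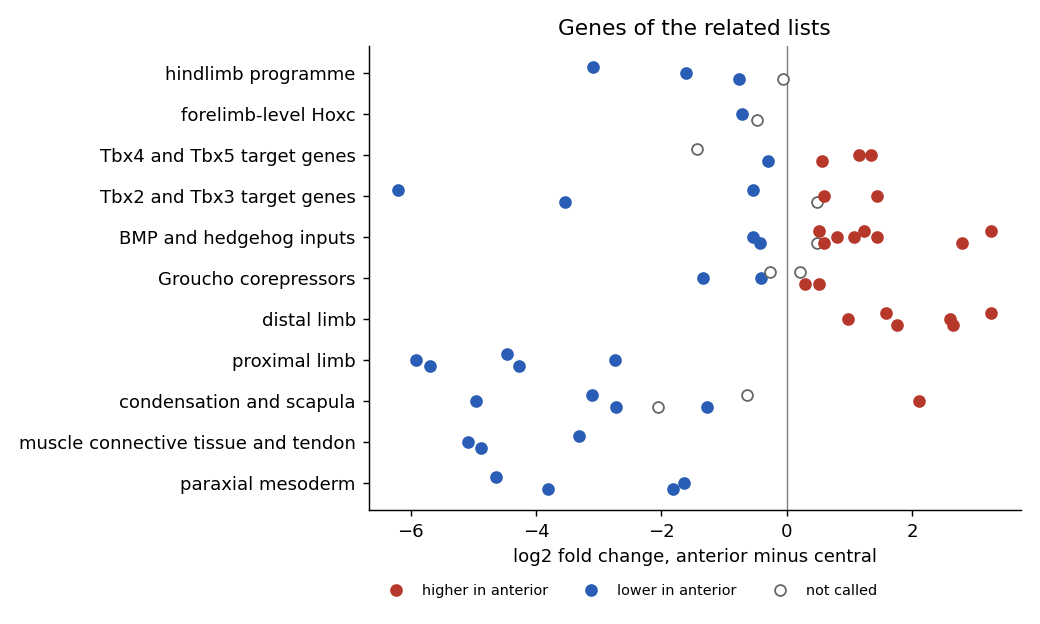
Log2 fold change, anterior minus central, of each tested gene in 11 related lists (Tcf4 left out), red where called higher and blue where called lower by edgeR, open where not called. All 6 distal genes lie to the right of 0 and all 5 proximal genes to the left, while the target lists of both T-box pairs lie on both sides.

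Markers of other cell types moved with the populations. Myogenic genes fell in 8 of 8 (summed level 9.61 to 18.6 CPM in anterior and 216 to 238 in central libraries, with Pax7 and Myog at 0 in anterior cells). Ectoderm genes fell in 9 of 10 (10.3 to 10.4 against 55.2 to 185 CPM), and endothelial genes in 6 of 10, with 1 higher (8.07 to 11.5 against 29.9 to 41.6 CPM). Neural crest and Schwann genes fell in 2 of 4 tested (6.44 to 7.47 against 20.0 to 25.8 CPM, with Sox10 and Foxd3 at 0 in anterior cells). Blood genes rose in 7 of 9 tested (3300 to 8390 against 9.87 to 12.2 CPM), with Hba-a1 at 0 in all 4 libraries. Of the 5 limb mesenchyme genes, 3 rose, 1 fell and 1 was not called (median log2 fold change 0.83). The one not called, Prrx1, measured 696 ± 28.8 CPM in anterior and 661 ± 28.2 in central cells (SD, n = 2, edgeR adjusted p 0.473). Pdgfra fell by 1.17, whereas Msx1, Prrx2 and Twist1 rose by 3.26, 1.91 and 0.83. The part of these cell types in the values of Tbx1, Tbx5, Tbx15, Tbx18 and Tbx22 was not tested. With the 10 blood genes removed, the same number of members was called lower, 4.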

How the data were processed

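RNA-seq counts of 4 mouse hindlimb libraries were analysed, 2 anterior and 2 central, with groups and replicate numbers taken from the sample titles. The authors deposited whole-number read counts per gene symbol, not normalized. STAR 2.7.9a, HTSeq, DESeq2 and mm10 are named in the submitters' processing notes, with no role given; strandedness is not given in the sources used here. Reads of Tbx3, Tbx15 and Tbx18 can therefore not be told apart from those of overlapping antisense or opposite-strand transcripts (Tbx3os1, Gm43120, D030062O11Rik). Even numbers made up 72.8% to 75.6% of counts from 1 to 10, so both mates may have been counted.

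Genes were kept by filterByExpr, scaled by TMM and tested with edgeR 4.0.16 (R 4.3.3). CPM values use the effective library sizes, and 3 counts correspond to 0.0899 to 0.102 CPM. Standard errors are the absolute log2 fold change over the square root of F. Replicate ratios over all genes used CPM plus 0.1. Exon lengths and coordinates are from GENCODE M21. Binomial and count intervals cover counting error only.

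The members and gene lists were chosen with earlier results of these data known. All members and other T-box genes are named, with all genes of the hindlimb, forelimb and Tbx4/Tbx5 target lists. From other related lists up to 4 called genes of the largest change at a mean CPM of at least 5 are named, and up to 3 markers per cell type by level. Further genes were named after their values were seen. The alternatives covered scaling, test (limma-voom 3.58.1, DESeq2 1.42.0), filter, replicate block, halved counts, blood genes, threshold and left-out libraries. On simulated counts for 14610 genes, of which 200 were changed, 69.8% of 2-fold and 92.3% of 4-fold changes were recovered. There, 9.44% of calls were unchanged genes. In the data a larger share of genes was called, 22.9%, so these rates need not carry over. No pair of replicates agreed within sampling noise (chi-square per degree of freedom 15.1 and 8.52 on halved counts).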

Additional observations from a re-analysis of the deposited data

How the results depend on the processing

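The 4 called members kept direction and call under each alternative that tested them. A mean count of at least 50 left Tbx1 and Tbx5 untested, so 2 members were called. Leaving out a library gave 4 to 6 members and 1941 to 3510 genes called, by edgeR with the lone sample assumed to vary like the other group. At an adjusted p under 0.01, 1690 genes and the same number of members, 4, were called. Replicate numbers are shared by the populations, but nothing ties same-numbered libraries to one embryo, and replicate deviations correlated across genes at 0.049 (Pearson) and 0.0314 (Spearman). With the replicate block, 3586 genes and 5 members were called, Tbx3 joining at an edgeR adjusted p of 0.0127.

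Signs turned in genes that were not called. Over left-out libraries the log2 fold change ranged from -0.93 to 0.29 for Tbx2 (0.18 without central replicate 1), -0.16 to 0.40 for Tbx6 (-0.15 without central replicate 2), -0.45 to 0.31 for T (0.21 without central replicate 1), -2.23 to 6.34 for Eomes, -0.12 to 0.04 for Pitx1, -0.43 to 1.04 for Bmp2, -0.55 to 0.08 for Tle6, -2.97 to 1.21 for Acan and -0.61 to 1.67 for Hand1. Eomes also turned with limma-voom, at 1.09. The cause was not tested. Of 177 values of the 13 tested T-box genes under alternatives, 161 kept direction and side of the threshold, 8 gained a call and 8 changed sign. Genes within a few counts of 3 have wide fold changes at this depth.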

Other observations

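Protein-coding genes next to the members on the chromosome were read as a description. Beside Tbx15, the near neighbour Wars2, 1.20 kb away, was not called (log2 fold change 0.11, edgeR adjusted p 0.539), while Spag17, 531 kb away on the other side, fell by 2.81, with 16 and 13 counts in anterior and 96 and 111 in central libraries. Both neighbours of Tbx18 fell: Cep162, 447 kb away, by 0.68 and Nt5e, 596 kb away, by 3.19 (12 and 3 counts in anterior, 74 and 64 in central libraries). Beyond the linked Tbx3 and Tbx5, Med13l on one side fell by 0.33 and Rbm19 on the other rose by 0.32. Beside the Tbx2 and Tbx4 pair, Bcas3 was not called (0.07) and Brip1 rose by 0.39. Gnb1l and Gp1bb, which flank Tbx1, were not called (-0.20 and 0.01). Of the neighbours of Tbx6, Ypel3, 0.969 kb away, fell by 0.58 and Ppp4c, 0.306 kb away, was not called (0.04). Dpy19l2, next to Tbx20, was too low to test.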
